A study of Mus musculus with 20 samples.

Results

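The expression of 9 genes of the nuclear factor kappa B (NF-kB) response was examined in dermal lymphatic endothelial cells (LECs) across the day. They were 4 genes for negative regulators (Nfkbia, Tnfaip3, Socs3 and Zfp36), Nfkbiz for an atypical nuclear IkB protein, the cytokine gene Il6 and the chemokine genes Cxcl1, Cxcl2 and Ccl2. These 9 of the 24062 gene symbols in the count data were selected on their measured counts at the 4 time points, so their levels are given as a description, without a test. LECs were sorted as CD31+podoplanin+ cells from ear skin of wild type C57BL/6 mice (male, C57BL/6N, post natal day 56) that received no treatment. Ears were taken at ZT1, ZT7, ZT13 and ZT19, where Zeitgeber time (ZT) counts hours from lights on in a cycle of 12 h light and 12 h dark. Each of the 5 replicates per time point was a pool of 4 ears from 2 mice, and 3000 to 5000 cells were sorted after enzymatic digestion of the skin.

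NF-kB is a family of dimeric transcription factors that are held in the cytoplasm by IkB proteins. Cytokines such as tumour necrosis factor and interleukin 1 activate the IkB kinase, which marks IkBα for degradation and frees the dimers to enter the nucleus. Some of the genes that are then transcribed switch the response off again. Nfkbia encodes IkBα itself, Tnfaip3 encodes the ubiquitin-editing enzyme A20, Nfkbiz encodes the nuclear protein IkBζ, which acts as a coactivator at some NF-kB targets such as Il6, and Zfp36 encodes tristetraprolin, which binds AU-rich elements in the 3' ends of cytokine mRNAs and hastens their decay. Socs3 is transcribed through STAT3 and inhibits signalling by receptors of the interleukin 6 family. Il6, Cxcl1, Cxcl2 and Ccl2 are outputs of the same response, and the chemokines attract neutrophils (Cxcl1, Cxcl2) or monocytes (Ccl2).

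The sequences through which NF-kB and tristetraprolin are known to act on such genes are shown first, as they distinguish the 9 genes from each other. RefSeq promoter windows of GRCm38.p6, from 250 bases before to 50 bases after the start of transcription, were matched for 7 of the 9 genes (not Nfkbiz and Ccl2), with 2 windows for Tnfaip3, of which the one with matches is shown. The 10-base NF-kB binding consensus (κB), searched on both strands, was found in 5 of these 7 genes and in 8.46% of the 32851 windows of all genes. Its stricter form GGGANNTTCC, searched on both strands and contained in the consensus, was found in Nfkbia, Cxcl1, Cxcl2 and Il6 and in 1.47% of all windows. Bases -140 to +10 are printed 5' to 3' for the genes with a match and for Zfp36, with κB matches in capitals.
Nfkbia, chr12:55492638-55492787, minus strand: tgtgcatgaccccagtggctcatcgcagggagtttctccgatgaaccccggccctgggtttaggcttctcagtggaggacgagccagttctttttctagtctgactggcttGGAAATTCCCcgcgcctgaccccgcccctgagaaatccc
Tnfaip3, chr10:19015401-19015550, minus strand: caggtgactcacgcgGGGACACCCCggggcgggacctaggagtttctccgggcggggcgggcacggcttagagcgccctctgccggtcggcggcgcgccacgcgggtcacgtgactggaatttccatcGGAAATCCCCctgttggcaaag
Cxcl1, chr5:90891105-90891254, plus strand: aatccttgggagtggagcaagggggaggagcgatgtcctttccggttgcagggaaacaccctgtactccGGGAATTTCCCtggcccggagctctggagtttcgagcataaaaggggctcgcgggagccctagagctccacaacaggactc
Cxcl2, chr5:90903759-90903908, plus strand: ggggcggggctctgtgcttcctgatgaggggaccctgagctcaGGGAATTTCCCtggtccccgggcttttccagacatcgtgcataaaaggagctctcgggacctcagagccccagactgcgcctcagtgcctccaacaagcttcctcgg
Il6, chr5:30012974-30013123, plus strand: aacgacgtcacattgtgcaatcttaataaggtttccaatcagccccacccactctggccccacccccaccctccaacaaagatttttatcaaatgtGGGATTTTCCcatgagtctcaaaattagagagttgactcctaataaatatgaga
Zfp36, chr7:28379219-28379368, minus strand: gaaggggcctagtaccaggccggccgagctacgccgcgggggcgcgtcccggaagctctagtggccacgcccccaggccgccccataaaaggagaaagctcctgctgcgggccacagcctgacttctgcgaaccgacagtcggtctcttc
Cxcl1 and Cxcl2 carried the same run of bases, which hold overlapping matches on both strands, starting 71 and 97 bases before their starts. The match of Il6 began at -44 and that of Nfkbia at -29, and Tnfaip3 had matches at -125 and -12. No κB match was present in the windows of Zfp36 and Socs3. Each of these held the STAT consensus TTCNNNGAA, at -17 in Zfp36 and at -154 in Socs3, as did 8.3% of all windows. The Tnfaip3 window also held the E-box CACGTG at -33, a sequence present in 7.15% of all windows. A match describes letters in a window and does not show that a factor was bound.

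In the 3' ends, the AU-rich heptamer TATTTAT, which lies at the core of many tristetraprolin binding sites and is written here as DNA, occurred after the stop codon in 7 of the 9 genes, against 30.3% of 17083 coding genes with at least 200 bases there. It occurred 7 times in Cxcl2, 6 times in Cxcl1, 3 times in Zfp36 itself, 2 times each in Nfkbia, Tnfaip3 and Socs3 and 1 time in Il6, and Nfkbiz and Ccl2 had none. By density Cxcl1, with 10.1 sites per kb, stood within the top 0.0585% of these genes and Cxcl2, with 9.54 per kb, within the top 0.0761%. The densest 30 bases of the chemokines, Zfp36 and Socs3 are printed with the heptamers in capitals, from the transcripts of GENCODE M21 (GRCm38).
Cxcl1, chr5:90892603-90892632, plus strand: agggtccTATTTATTTATgTATTTATTTAT
Cxcl2, chr5:90905324-90905353, plus strand: actTATTTATTTATctatgTATTTATTTAT
Zfp36, chr7:28376962-28376991, minus strand: gggcccttTATTTATgacgacttTATTTAT
Socs3, chr11:117966139-117966168, minus strand: actttgcacataTATTTATATTTATactca
Each chemokine window holds 2 pairs of overlapping heptamers, and the Socs3 and Zfp36 windows hold 2 heptamers each.

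Reads counted on genes ranged from 4475111 to 42002363 per library (median 9379794), so that 3 counts corresponded to between 0.648 and 7.18 normalized counts. Normalized counts are counts scaled to a common library size (edgeR's TMM), set at the geometric mean over libraries. Between 12477 and 21697 genes had a read per library, and the library with the most reads on genes, ZT13 replicate 5, had 13309. Between 12.7% and 81.6% of reads assigned to a gene or to none lay on genes, and this share moved with time, from 20.2% to 29.5% at ZT1, 12.7% to 62.3% at ZT7, 20.1% to 79.9% at ZT13 (highest in replicate 5) and 35.0% to 81.6% at ZT19 (highest in replicate 1). LEC markers were high in every library, with Lyve1 between 6393 and 29894 normalized counts and Prox1 between 1276 and 4490.0. Keratinocyte transcripts were also present, with Krt14 between 2936 and 72834 normalized counts, and keratinocyte markers moved with time. In sorted bulk samples, a change in the number of cells of a type and a change in RNA per cell cannot be told apart. The 9 genes were all among the 19209 that passed the filter on low counts.

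Levels were compared between genes per kb of transcript (GENCODE, the transcript with the longest coding sequence). Nfkbia was the most abundant of the 9, with a mean level of 3848 ± 2005 normalized counts per kb (SD, n = 20 libraries), and it lay above Zfp36 (633 ± 356) in all 20 libraries. On this scale Nfkbia was above 99.3% of 23700 genes, Zfp36 above 94.2%, Socs3, Cxcl1 and Nfkbiz above 81.4%, 81.1% and 79.1%, and Ccl2 above 72.4%. Zfp36 in turn lay above Socs3 (191 ± 165) in all 20 libraries. Socs3, Cxcl1 (187 ± 273) and Nfkbiz (164 ± 79.1) had means within their spread, and Cxcl1 lay above Nfkbiz in 7 of 20 libraries. Ccl2 (109 ± 265), Tnfaip3 (45.1 ± 42.3), Il6 (18.1 ± 30.8) and Cxcl2 (13.8 ± 28.0) were lower, and Ccl2 lay above Tnfaip3 in 11 of 20 libraries. High single libraries raised the means of Cxcl1 and Ccl2, which were 179 and 88.3 normalized counts against medians of 99.2 and 37.3. The mRNA for the inhibitor IkBα was thus the main transcript of the group in these libraries, while Tnfaip3, Il6 and Cxcl2 lay above 58.5%, 46.1% and 41.6% of genes.

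**Figure D1:**
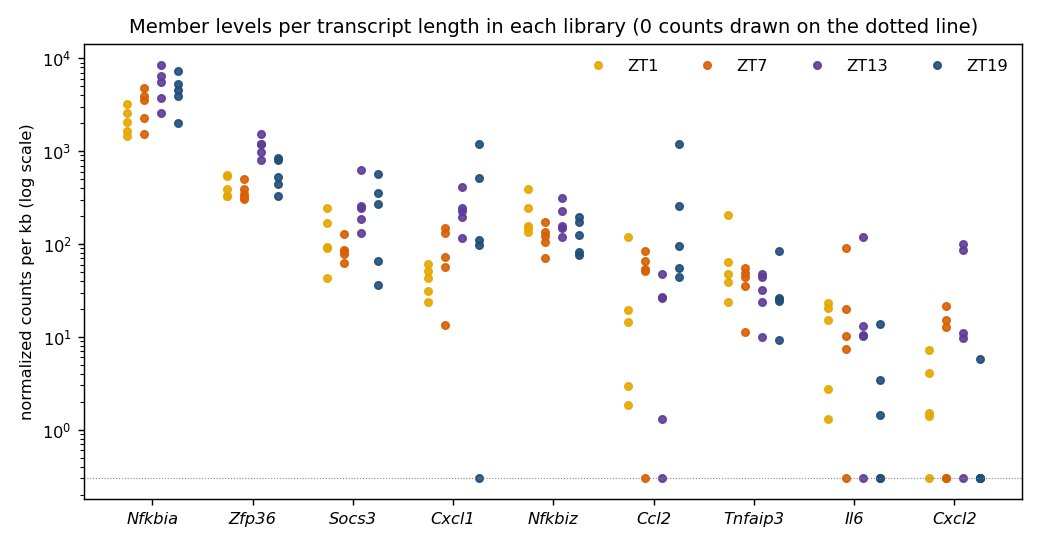
Normalized counts per kb of transcript (log scale) of the 9 genes, ordered by their mean over 20 libraries, with 1 point per library coloured by time point and libraries with 0 counts drawn on the dotted line. Nfkbia lay above Zfp36, and Zfp36 above Socs3, in all 20 libraries, while Cxcl2 had 0 counts in 8 libraries and Il6 in 4.

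Zfp36 (tristetraprolin; chr7:28376784-28380253 on the minus strand) had its highest mean at ZT13. Its normalized counts in replicates 1 to 5 were 916, 1099, 1509.7, 1561 and 912 at ZT1 and 899.6, 968, 853, 1407 and 1082 at ZT7. They were 2727, 3329, 2249, 3339 and 4245 at ZT13 and 1249, 2363, 2252, 925 and 1456 at ZT19. All 5 libraries of ZT13 lay above all those of ZT1 and ZT7, and replicates 2 and 3 of ZT19 reached into the ZT13 range. The means were 1199.7 ± 316, 1042 ± 221, 3178 ± 751 and 1649 ± 631 (SD, n = 5 each). Fitted differences in log2 were 1.61 (SE 0.32) from ZT7 to ZT13, 1.41 (SE 0.32) from ZT1 to ZT13 and -0.95 (SE 0.31) from ZT13 to ZT19. Leaving out each library in turn kept the difference from ZT7 to ZT13 between 1.48 and 1.75. Keratinocyte markers had their lowest summed level in the same libraries, with 11429 to 33777 normalized counts over 14 genes at ZT13, 37802 to 75898 at ZT1, 67824 to 189719 at ZT7 and 96491 to 199200.0 at ZT19, and none of them was at 0 throughout a time point. With keratinocyte and fibroblast marker scores in the fit, the Zfp36 difference from ZT7 to ZT13 was 0.88. The part of these cells in the Zfp36 level was not tested beyond this. The antisense gene Gm44710 overlaps 125 exon bases of Zfp36, and, as the kit does not mark strand, reads of the pair cannot be told apart there.

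Socs3, the inhibitor of cytokine receptor signalling (chr11:117966079-117970047, minus strand), had higher means in the dark, at ZT13 and ZT19. Its normalized counts were 232, 237, 433, 627 and 110.1 at ZT1 and 202, 216, 222, 324 and 158 at ZT7. They were 616, 337, 476, 650.2 and 1585 at ZT13 and 684, 1464, 912, 91.6 and 166 at ZT19. The libraries of ZT13 all exceeded those of ZT7, and the 5 of ZT19 were spread from 91.6 to 1464. Means were 328 ± 203, 224 ± 60.9, 733 ± 492 and 664 ± 565 (SD, n = 5 each), and the fitted log2 difference from ZT7 to ZT13 was 1.71 (SE 0.57). ZT13 replicate 5, the library of ZT13 with the largest share of reads on genes (79.9%), had the highest Socs3 level of that time point, and without it the difference of mean log2 levels between ZT13 and ZT7 was 1.20 in place of 1.53.

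Nfkbia (IkBα; chr12:55489410-55492647, minus strand) had its lowest mean at ZT1. Its normalized counts were 2618, 4061, 3239, 2286 and 5052 at ZT1 and 7659, 6128, 3616, 5549 and 2391 at ZT7. They were 4035, 13495, 5879, 10249 and 8801 at ZT13 and 3169, 7199.6, 6173, 8343 and 11491 at ZT19. Every time point overlapped every other, and at ZT13 and ZT19 the values spread widely between pools. Means were 3451 ± 1122, 5069 ± 2082, 8492 ± 3705 and 7275 ± 3041 (SD, n = 5 each). Relative to ZT1 the fitted log2 difference was 0.55 (SE 0.41) at ZT7, 1.30 (SE 0.41) at ZT13 and 1.08 (SE 0.41) at ZT19. With counts between 1477 and 40749 per library, counting error is small beside the spread between pools.

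Nfkbiz and Tnfaip3 had another order and their highest means at ZT1. Nfkbiz (chr16:55811375-55838899) had means of 882 ± 438, 496 ± 151, 792 ± 323 and 537 ± 221 normalized counts in the order of the time points (SD, n = 5 each). Single libraries had 648, 549, 1601, 998 and 615 at ZT1 and 290.0, 549, 702, 435 and 503 at ZT7, then 922, 1296, 647, 486 and 611 at ZT13 and 311, 515, 712, 807 and 339 at ZT19. All its time points overlapped, and without ZT1 replicate 3 its highest mean was at ZT13 (792, against 702 at ZT1). Tnfaip3 (chr10:19000910-19015657), with 41.0 to 909.9 normalized counts, had means of 336 ± 327, 171 ± 74.5, 139 ± 67.5 and 151 ± 129.7. The high mean of ZT1 came from replicate 5 with 909.9 normalized counts, since the other 4 libraries of ZT1 lay between 104 and 285. Tnfaip3 ranged from 50.4 to 242 at ZT7, 44.5 to 211 at ZT13 and 41.0 to 376 at ZT19. Without ZT1 replicate 5 the difference of mean log2 levels between ZT1 and ZT19 fell from 1.09 to 0.63.

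**Figure D2:**
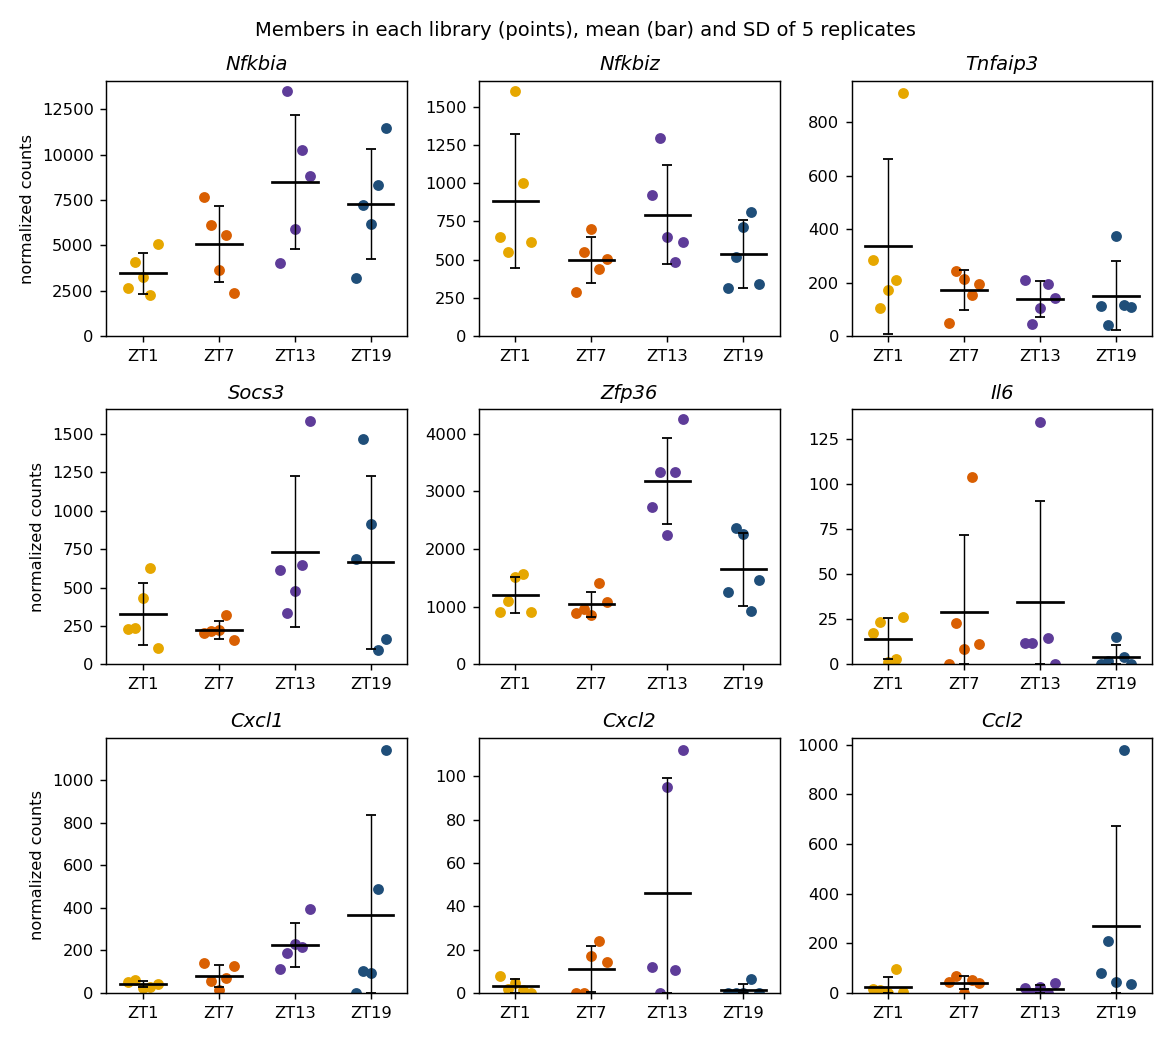
Normalized counts (linear scale, each panel with its own axis from 0) of the 9 genes at ZT1, ZT7, ZT13 and ZT19. Points are the 5 libraries of a time point, the horizontal bar their mean and the vertical bar 1 SD either way, drawn no lower than 0. Zfp36 at ZT13 lies above all libraries of ZT1 and ZT7, while Tnfaip3 at ZT1 and Ccl2 at ZT19 each have a single high library.

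Il6 (chr5:30013114-30019981, plus strand) had low counts. Its counts were 13, 14, 1, 2 and 11 at ZT1 and 0, 40, 4, 70 and 9 at ZT7. They were 8, 11, 68, 14 and 0 at ZT13 and 0, 5, 24, 3 and 0 at ZT19. By counting error alone, a count of 0 allows up to 3 counts, which is 3.69 normalized counts in ZT7 replicate 1 and 0.648 in ZT13 replicate 5. The latter library had 13309 genes with a read, and transcripts lost before sequencing are not covered. The highest levels were 104 normalized counts in ZT7 replicate 4 and 135 in ZT13 replicate 3, and no other library exceeded 26.3. Il6 levels and the log2 odds of a read lying on a gene had Pearson's r = -0.61 over the 20 libraries, which share preparation and differ in depth, and with these odds in the fit the Il6 difference turned from above to below 0 from ZT7 to ZT13 and from below to above 0 from ZT1 to ZT19.

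The neutrophil chemokine Cxcl1 (chr5:90891241-90893115) had its lowest mean at ZT1. Its normalized counts were 49.1, 58.7, 22.6, 29.4 and 40.7 at ZT1 and 140.1, 54.3, 12.7, 69.8 and 125 at ZT7. They were 112, 188, 230.1, 214 and 394 at ZT13 and 0, 105, 93.0, 490.1 and 1142 at ZT19. All libraries of ZT13 were above all of ZT1, whereas ZT19 held the highest libraries of the series and the only one with no Cxcl1 read. That library, replicate 1, had 36022409 reads on genes and 0 counts of Cxcl1, which by counting error alone allows up to 0.766 normalized counts. It also had the fewest genes with a read (12477), and the bound does not cover transcripts lost before sequencing. Means were 40.1 ± 14.6, 80.3 ± 52.2, 227 ± 103 and 366 ± 473 (SD, n = 5 each). The fitted log2 difference from ZT1 was 1.0 (SE 0.93) at ZT7, 2.5 (SE 0.97) at ZT13 and 3.19 (SE 0.99) at ZT19.

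Cxcl2 (chr5:90903871-90905938) lies near Cxcl1 on chromosome 5 and shares its κB sequence, but was scarcer. Its counts were 6, 1, 3, 1 and 0 at ZT1 and 0, 0, 8, 16 and 11 at ZT7. They were 8, 0, 48, 10 and 519 at ZT13 and 0, 0, 0, 5 and 0 at ZT19. The highest levels were 95.2 and 112 normalized counts in replicates 3 and 5 of ZT13, and 8 of the 20 libraries had no read. At ZT19, 4 of 5 libraries had 0 counts, with between 15112966 and 36022409 reads on genes. Libraries of ZT19 had 12477 to 18768 genes with a read, against 19055 to 21525 at ZT1. Where fewer genes are detected, a count of 0 does not show that the transcript was absent. The transcript shares 11 of its 1010 windows of 100 bases with Cxcl3, so reads there cannot be assigned to either gene alone.

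Ccl2, the monocyte chemokine (chr11:82035571-82037453, plus strand), had its highest mean at ZT19. Normalized counts were 15.9, 11.7, 1.5, 95.9 and 2.39 at ZT1 and 44.2, 68.0, 0, 53.5 and 41.2 at ZT7. They were 21.1, 0, 21.8, 1.07 and 38.7 at ZT13 and 78.3, 209.5, 45.2, 979 and 35.9 at ZT19. The ZT19 mean of 269.6 ± 403 (SD, n = 5) was set by replicate 4 with 979, the next highest being 209.5, and the lowest library of ZT19 lay within the range of every other time point. The difference of mean log2 levels between ZT19 and ZT13 was 3.87 over all libraries, 3.13 without that replicate, 3.11 without ZT13 replicate 2 and 3.05 with a pseudocount of 5. Without both libraries with over 75% of reads on genes it was 4.50. ZT19 replicate 4 also stood apart in S100a8 and S100a9, of the neutrophil marker list, with 12631 and 3840 normalized counts against at most 77.4 and 107 in the others. The summed level of the 4 neutrophil markers in the files (of 5 listed) was 0 to 16485 at ZT19, 9.02 to 127 at ZT1, 13.7 to 289 at ZT7 and 0 to 124 at ZT13. The highest sum came mainly from S100a8 and S100a9. Csf3r, the granulocyte colony-stimulating factor receptor, was at 11.6 normalized counts in that library, within the range of 0 to 197 over all libraries. Cxcr2 was at 1.29 there, within its range of 0 to 56.4. S100a9 was at 0 in all libraries of ZT13. The part of other cells in Ccl2 was not tested.

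Side by side, 5 of the 9 genes had their highest mean at ZT13 (Nfkbia, Socs3, Zfp36, Il6 and Cxcl2), 2 at ZT1, 2 at ZT19 and 0 at ZT7, and of all genes tested 3481 of 19209 had theirs at ZT13. Leaving out each library in turn, Zfp36 and Cxcl2 kept theirs at ZT13. That of Nfkbia moved to ZT19 without ZT13 replicate 2 (7275 against 7241), that of Socs3 to ZT19 without ZT13 replicate 5 or ZT19 replicate 4 or 5, and that of Il6 to ZT7 without ZT7 replicate 1 or ZT13 replicate 3. The highest mean of Cxcl1 moved from ZT19 to ZT13 without ZT19 replicate 5. In the order of the means, no neighbouring time points of any gene were separated: the 5 libraries of one overlapped those of the next in all 27 neighbouring pairs. This was not counted over all genes. Between fixed pairs of time points only 1.0% to 8.56% of all genes were separated, so the absence says little about these genes. From ZT7 to ZT13 the fitted difference was above 0 in 7 genes, with a median of 0.74 (log2) against -0.07 over all genes tested. With the odds of a read on a gene in the fit it was above 0 in 6, as Il6 lay below 0. From ZT1 to ZT13 it was above 0 in 6 genes, with a median of 1.27 against -0.06. From ZT13 to ZT19 it was below 0 in 6 genes, and the medians were -0.22 and -0.22. That count was 7 with DESeq2's size factors or upper quartile scaling, where Tnfaip3 also lay below 0. It was 5 with keratinocyte and fibroblast scores in the fit, where Nfkbia and Socs3 lay above 0 and Tnfaip3 below, and 5 without both libraries with over 75% of reads on genes, where Socs3 lay above 0. These comparisons share libraries and are not independent of each other.

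**Figure D3:**
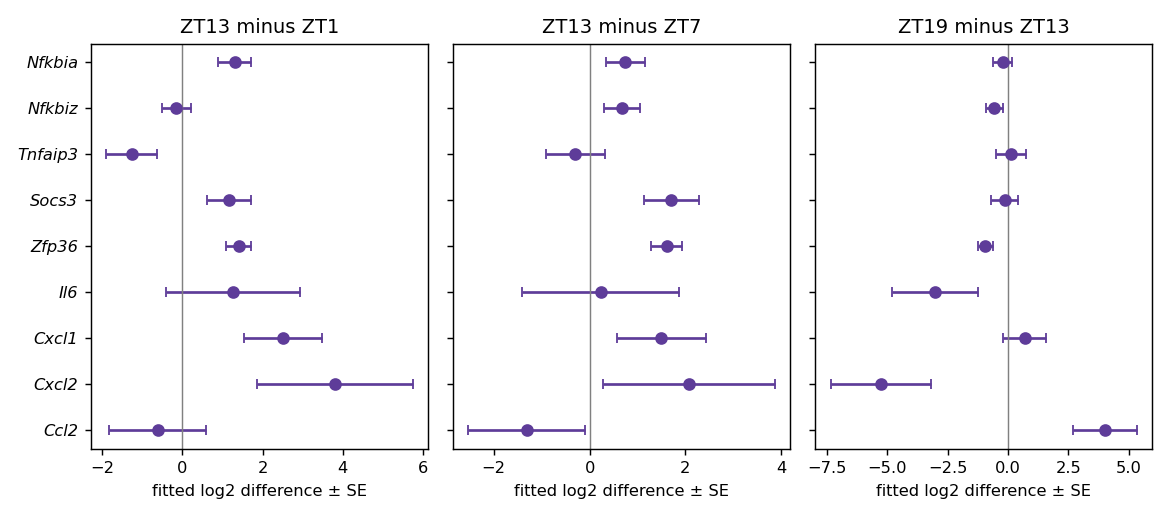
Fitted log2 differences (edgeR, points) with approximate standard errors (bars, derived from the F statistic) for the 9 genes between ZT1 and ZT13, ZT7 and ZT13, and ZT13 and ZT19. Zfp36 has the smallest standard errors, at 0.31 to 0.32, while those of Il6, Cxcl2 and Ccl2 are between 1.21 and 2.09.

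The following counts of calls come from the values that chose the genes and are given as description only. With edgeR's quasi-likelihood test and Benjamini-Hochberg adjustment over 19209 genes, 1 of the 9 (Zfp36) was called among the 4 time points, where 0.422% of all genes were called. DESeq2 called 2 of the 9 (Nfkbia and Zfp36) and 3.12% of all genes. The Zfp36 call was lost without ZT7 replicate 3 or ZT13 replicate 2, 4 or 5 and with keratinocyte and fibroblast scores in the fit. Cxcl1 was called as well without ZT19 replicate 1, and without both libraries with over 75% of reads on genes Cxcl1 alone was called. Between ZT7 and ZT13, 1 of 9 was called (Zfp36; background 0.0937%). This call was lost without each of 8 of the 20 libraries, namely ZT7 replicates 1, 2, 3 and 5 and ZT13 replicates 1, 2, 4 and 5. It was also lost with marker scores in the fit, in a fit of only these 2 time points and without both libraries with over 75% of reads on genes. For the other pairs edgeR called 0 of 9, where the background was 0.00521% (ZT1 and ZT7), 0.0208% (ZT1 and ZT13), 0.0156% (ZT1 and ZT19), 0.0156% (ZT7 and ZT19) and 0.588% (ZT13 and ZT19). At an unadjusted p under 0.05 the same test counted 1, 4, 3, 4 and 3 of 9 in that order, against 4.97%, 5.37%, 21.6%, 19.7% and 19.2% of all genes. DESeq2 after adjustment called 0, 2, 3, 0 and 3 of 9, against 0.0625%, 0.39%, 10.3%, 10.8% and 9.24% of all genes.

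All 5 libraries of a time point lay apart from all 5 of another in 2 of 9 genes between ZT7 and ZT13 (Socs3 and Zfp36; background 1.0%) and in 2 of 9 between ZT1 and ZT13 (Zfp36 and Cxcl1; 1.47%). In the remaining pairs this held for 0 of 9, with a background of 1.75% (ZT1 and ZT7), 8.56% (ZT1 and ZT19), 1.94% (ZT7 and ZT19) and 2.48% (ZT13 and ZT19). For a curve with a period of 24 h, edgeR called 0 of 9 (background 0.0312%), while 5 of 9 had an unadjusted p under 0.05 (9.23% of all genes) and DESeq2 called 2 of 9 (0.385%). The fitted amplitude (log2) of Zfp36 was 0.78 with a peak at 14.7 h, that of Nfkbia 0.70 with a peak at 14.5 h, that of Cxcl1 1.65 with a peak at 15.8 h and that of Socs3 0.97 with a peak at 16.6 h. The other 5 peaked elsewhere, with amplitudes of 2.46 with a peak at 10.5 h for Cxcl2, 1.53 with a peak at 8.65 h for Il6, 1.39 with a peak at 19.9 h for Ccl2, 0.64 with a peak at 1.55 h for Tnfaip3 and 0.10 with a peak at 22.6 h for Nfkbiz. With 4 time points, such a curve describes the means and does not show that a rhythm recurs.

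The rest of the pathway was then tested, over 112 genes in 9 lists that hold none of the 9 genes above. These lists too were chosen with earlier results of these data known. None of the 112 changed among the 4 time points with edgeR after adjustment over all genes, where 0.422% of all genes did, while 16 had an unadjusted p under 0.05 (15.7% of all genes did) and DESeq2 called 6 (3.12% of all genes). At so low a background a count of 0 says little about these genes. For each list the genes with the smallest p are given by their mean normalized counts at ZT1, ZT7, ZT13 and ZT19. Of the 5 NF-kB subunits, Nfkb1 (p105 and p50) had 991, 659, 1117 and 527 and Rel (c-Rel) had 33.5, 105, 9.41 and 46.9. Of 4 other IkB proteins, Nfkbib had 390.2, 364, 369.8 and 615 and Bcl3 had 212, 250.1, 185 and 249.5. The 18 kinases and adaptors were led by Tab2 (1046, 661, 762 and 513) and Tab1 (518, 245, 294 and 310.1), which link receptors to the kinase TAK1. Tab1 at ZT1 had an SD of 507. Rel had its lowest mean at ZT13, where Nfkb1 had its highest.

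Among the 13 other feedback regulators, Tollip, an adaptor that dampens interleukin 1 signalling, had 612, 723, 1078 and 1467 and Cyld, a deubiquitinase, had 659, 687, 500.4 and 369. The upstream ligands (8 tested of 9) were led by Il33, an alarmin of barrier tissues, with 230.4, 331, 77.7 and 345, and Tnfsf13b with 20.2, 9.45, 112 and 4.87. Their spread was wide, with an SD of 238 for Il33 at ZT1 and 158 for Tnfsf13b at ZT13. Among 15 receptors, the decoy receptor Il1r2 had 70.8, 274, 18.9 and 343 and Il6st, the shared chain of interleukin 6 receptors, had 5223, 3798, 7497 and 3928. Il1r2 had the smallest adjusted p of these genes, 0.103 (edgeR's quasi-likelihood test, Benjamini-Hochberg). The median keratinocyte marker sums were 51837, 92407, 25520 and 158390 from ZT1 to ZT19. Il1r2 and Il33 had the same order of time points, unlike the other genes named from these lists. The part of keratinocytes in them was not tested. Of the other NF-kB targets (22 tested of 24), the survival gene Bcl2l1 had 877, 837, 1754 and 1518 and Plaur, the urokinase receptor, had 1337, 1311, 2117 and 3584. Jak2 (743, 452, 575 and 439) and Socs5 (437, 245, 281 and 202) led the 13 genes of SOCS and JAK-STAT3. The 14 RNA decay factors were led by Zfp36l1, a paralogue of Zfp36, with 2214, 1881, 2105 and 979, and Rc3h1 with 808, 486, 532 and 367. Zfp36l1 had its lowest mean at ZT19, whereas Zfp36 was lowest at ZT7.

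**Figure D4:**
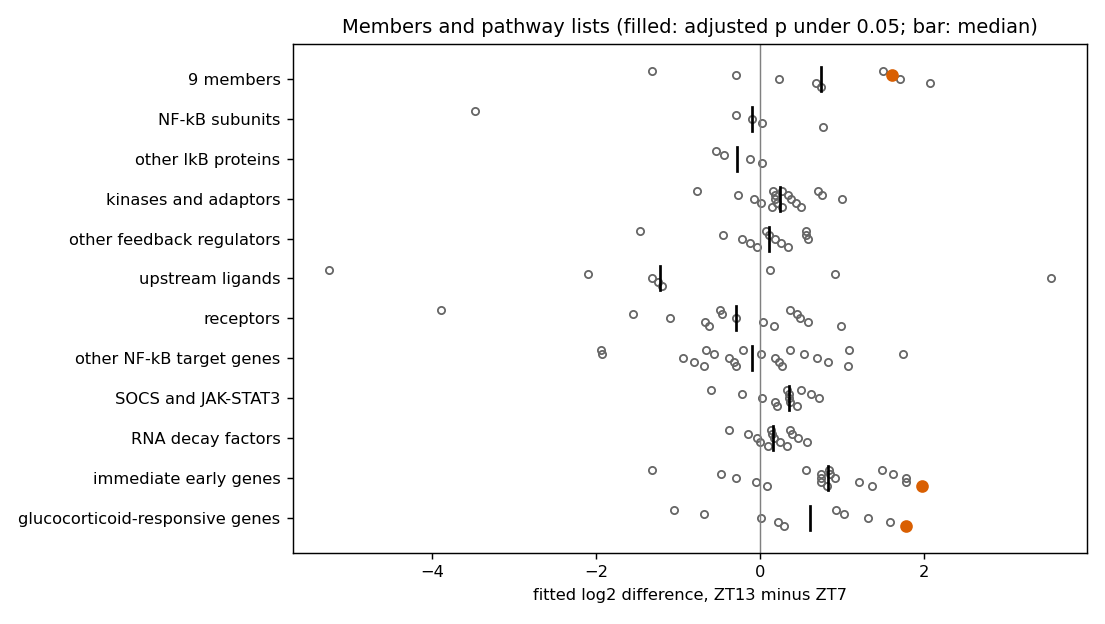
Fitted log2 differences between ZT7 and ZT13 of the 9 genes and of the tested genes of 11 lists, 1 point per gene, with the median of each row as a bar and filled points for an adjusted p under 0.05 (edgeR). Filled are Zfp36 among the 9, Fos among immediate early genes and Fkbp5 among glucocorticoid-responsive genes.

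Immediate early genes and glucocorticoid-responsive genes, lists chosen with earlier results of these data known, were tested as well. Zfp36, Socs3 and Nfkbia are known to answer to such signals, and whether these signals acted here was not tested. Of 20 immediate early genes, edgeR called 2 among the time points (0.422% of all genes) and DESeq2 8 (3.12% of all genes). Their highest mean was at ZT13 in 9 of the 20, against 3481 of all 19209 genes tested. Fos, a subunit of the AP-1 factor, had normalized counts of 5074 ± 2099.7, 3220.2 ± 748, 12594 ± 3091 and 6394 ± 1625 from ZT1 to ZT19 (SD, n = 5; adjusted p = 0.0236). It rose from ZT7 to ZT13 by 1.97 (log2, SE 0.36, adjusted p = 0.0202, edgeR's quasi-likelihood test), with 9156 to 15529 at ZT13 and 2137 to 4162 at ZT7. Fosb had 884 ± 227, 491 ± 241, 1678 ± 635 and 361 ± 95.4 from ZT1 to ZT19 (adjusted p = 0.0139, edgeR). The Fos rise had an adjusted p of up to 0.0842 when ZT7 replicate 2 or 3 or ZT13 replicate 2, 4 or 5 was left out, and the call was lost in each of these 5 cases. Among the 4 time points the Fos call was lost without ZT1 replicate 3, ZT7 replicate 3 or 4 or ZT13 replicate 2 or 4 (adjusted p up to 0.0718, edgeR), and the Fosb call without ZT13 replicate 4 (0.0528).

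Of 10 glucocorticoid-responsive genes, edgeR called 4 among the time points (0.422% of all genes). Their highest mean was at ZT13 in 6 of the 10, against 3481 of all 19209 genes tested. Fkbp5, a co-chaperone of the glucocorticoid receptor, had 407 ± 71.1, 455 ± 69.2, 1554 ± 475 and 758 ± 329 from ZT1 to ZT19 (SD, n = 5; adjusted p = 0.00428), and rose from ZT7 to ZT13 by 1.77 (log2, SE 0.32, adjusted p = 0.0202, edgeR). Cebpd and Zbtb16, which encode transcription factors, and Tsc22d3, which encodes the glucocorticoid-induced protein GILZ, also changed (Cebpd, adjusted p = 0.0152, Zbtb16, 0.0346, and Tsc22d3, 0.0387, edgeR), with ZT13 means of 2748, 1353 and 7356 against ZT1 means of 755, 389.9 and 1342. Fkbp5 kept its call among the time points whichever single library was left out, Cebpd in 18 of 20 cases (lost without ZT13 replicate 2 or 4), Tsc22d3 in 9 and Zbtb16 in 7. The Tsc22d3 call was lost without any library of ZT1, ZT7 replicate 3 or 4, ZT13 replicate 4 or ZT19 replicate 2, 3 or 5. That of Zbtb16 was lost without ZT1 replicates 1 to 4, ZT7 replicates 3 to 5, ZT13 replicate 1, 2, 4 or 5 or ZT19 replicate 3 or 5. A 24-h curve was called by edgeR for Fkbp5 (adjusted p = 0.0209, peak at 14.4 h) and Cebpd (0.0333, 13.1 h). The Fkbp5 curve lost its call without ZT1 replicate 3 or 4, ZT7 replicate 3 or ZT13 replicate 2, 4 or 5, and that of Cebpd without these, any other library of ZT1 or ZT7 replicate 4 or 5. The Fkbp5 rise from ZT7 to ZT13 lost its call without ZT7 replicate 2 or 3 or ZT13 replicate 2, 4 or 5. With keratinocyte and fibroblast scores in the fit, Fkbp5 and Tsc22d3 kept their calls among the time points, and Fos, Fosb, Cebpd and Zbtb16 lost them (adjusted p 0.082 to 0.117, edgeR). Without both libraries with over 75% of reads on genes, Fos, Cebpd and Zbtb16 lost theirs, and with the odds of a read on a gene in the fit Tsc22d3 and Zbtb16 did. Both 24-h curves lost their calls with the marker scores and without the 2 libraries, and that of Fkbp5 also with the odds. The rises of Fos and Fkbp5 from ZT7 to ZT13 were not called in a fit of only these time points, nor that of Fkbp5 without the 2 libraries. With the marker scores the Fkbp5 rise was 0.86 and that of Fos 1.47, neither called, so the keratinocyte values given for Zfp36 stand beside these genes too.

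Whether the 9 genes varied together from pool to pool was described by Pearson's r of log2 normalized counts over the 20 libraries, which share the protocol and differ in depth and time point. Of the 36 pairs, 20 had r above 0, and the median was 0.05 (-0.42 to 0.77). Socs3 and Zfp36 were the most alike, with r = 0.77 and 0.78 within time points, and Nfkbia was most like Cxcl1, with 0.66 and 0.58. The other pairs had r under 0.5 either way. Tnfaip3 was most like Il6 (0.36) and Nfkbiz most like Zfp36 (0.27). Outside the 9, in a choice made after the values were seen, Zfp36 had r = 0.88 with Fkbp5 (0.55 within time points) and 0.86 with Fos (0.49). Zfp36 also had r = -0.73 with the keratinocyte marker score (-0.48 within time points). The genes most like the mean of the 9 (standardized log2 levels) were Sbk1 (r = 0.83), Chst15 (0.77), the clock gene Per2 (0.76), Pmaip1 (0.75) and Mid1 (0.73), and within time points Sbk1 (0.85), Zfp446 (0.84), Shisa2 (0.84) and Ccdc57 (0.84).

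**Figure D5:**
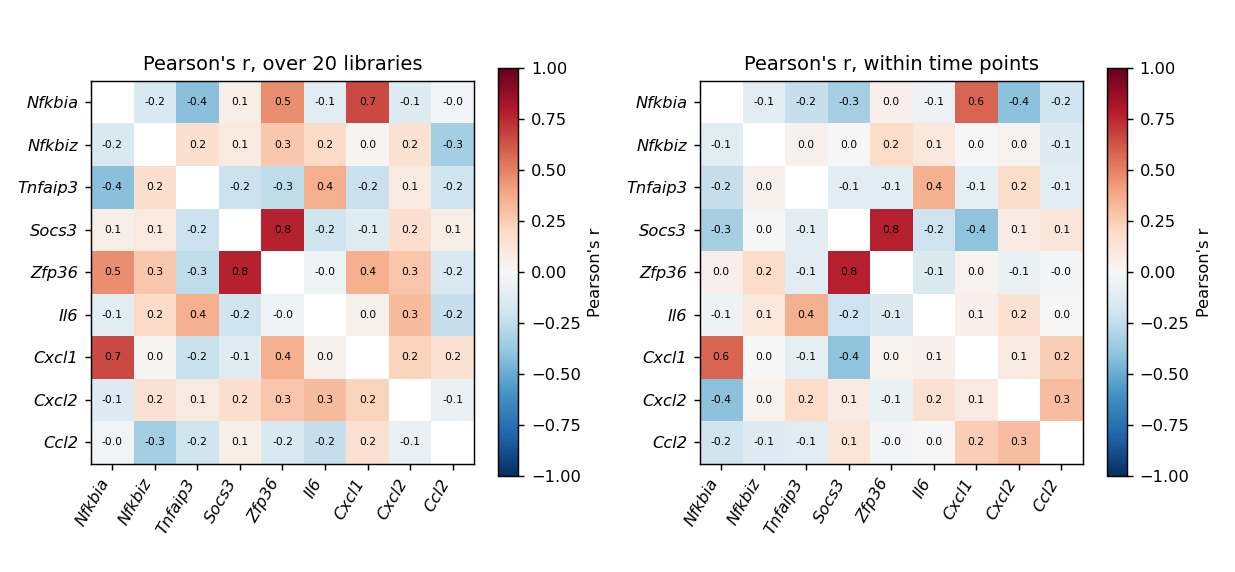
Pearson's r between the 9 genes (log2 normalized counts, colour from -1 to 1, value printed in each cell), over 20 libraries (left) and with the mean of each time point removed (right). Socs3 with Zfp36 and Nfkbia with Cxcl1 are the 2 pairs above 0.5 in either panel.

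Marker lists of other cells were read beside these values. Keratinocyte markers were called among the time points in 6 of 14 genes, fibroblast markers in 1 of 9 and neutrophil markers in 1 of the 3 tested, and no LEC marker of 10 was. Summed fibroblast markers were 6224 to 18394 normalized counts at ZT1, 938 to 4454 at ZT7, 735 to 9745 at ZT13 and 1211 to 12955 at ZT19. The summed LEC level was 79187 to 118803 normalized counts at ZT13, 83152 to 111506 at ZT1, 47990.4 to 100970.0 at ZT7 and 66557 to 88337 at ZT19. Macrophage and dendritic cell markers, whose cells can make these cytokines, summed to between 251 and 1317 normalized counts over the 8 genes in the files, with the lower values at ZT19 (251 to 576), and no listed gene was called. Blood endothelium markers, none of 7 called, summed to 5204 to 14472 at ZT13 against 3788 to 9729.7 in all other libraries. Of T and NK cell markers 0 of 6, of mast cell markers 0 of the 2 tested and of pericyte and smooth muscle markers 0 of 6 were called. At ZT13, where Zfp36 had its highest mean, keratinocyte sums were thus below those of every other time point, and LEC sums overlapped those of all of them.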

How the data were processed

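LECs of 20 pools were profiled by RNA sequencing with SMART-Seq v4 and Nextera XT libraries (100 nt, single end). The authors deposited whole-number counts per gene symbol, made with STAR (Galaxy 2.5.2b-0) on mm10 and HTSeq-count 1.0.0, and used DESeq2 2.11.40.6 for their own comparisons. The strand setting was not given in the sources used here, and the kit does not mark strand. Summary rows that name no gene were left out of library sizes, and for each library the reads on genes made up 12.7% to 81.6% of those on a gene or on no gene.

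Counts of 24062 genes were filtered (filterByExpr) and fitted in R 4.3.3 with edgeR 4.0.16 (TMM, quasi-likelihood test, 1 factor of 4 time points, all 20 libraries), with contrasts for 6 pairs of time points and a model of sine and cosine terms with a period of 24 h. P-values were adjusted over 19209 genes (Benjamini-Hochberg, threshold 0.05). Standard errors (SE) were taken as the absolute fitted difference over the square root of the F statistic. They are approximate, most so at low counts. Log2 levels used a pseudocount of 1. Code was tested on simulated data. DESeq2 1.42.0, other scalings and filters, covariates, a replicate block, fits of only the compared time points and fits without each library were alternatives.

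The 9 genes and all lists were chosen with earlier results of these data known. Named were the 9 genes, list genes with an adjusted p under 0.05 among time points or for the 24-h curve, or otherwise the 2 with the smallest p, and the 5 genes most like the mean of the 9, over all libraries and within time points, of which 1 is not reported here. Groups and replicate numbers came from the sample labels. Each library is a separate pool of mice, no library was left out, and no pair of libraries of a time point were near-identical (highest correlation 0.906). Intervals were not computed, and a floor of 3 counts covers counting error only. At these depths members with few counts (Il6, 297 in all libraries, and Cxcl2, 636) had the least precise levels.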

Additional observations from a re-analysis of the deposited data

Results flagged for a closer look

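In 36 groups of 5 libraries (9 genes at 4 time points), the gap between an extreme library and its neighbour was compared with the range of the group on the scale of log2(normalized counts + 1), and 3 groups exceeded the critical ratio of 0.71, where chance gives 1.8. As the genes were chosen on these counts, the ratios are a description only. Tnfaip3 had 50.4 normalized counts in ZT7 replicate 1, with the next lowest library at 154 (ratio 0.713 in log2). Ccl2 had 0 counts in ZT7 replicate 3, the library with the fewest reads on genes (4475111), with the next lowest at 41.2 (ratio 0.884 in log2). Cxcl2 had 6.45 normalized counts in ZT19 replicate 4 and 0 in the other 4 libraries of ZT19, which fixes the ratio at 1, and this library is the one with 12631 normalized counts of S100a8. On the linear scale, a choice made after seeing the data, 9 groups exceeded the ratio, each by its highest library, and Cxcl2 at ZT19 was the only one of the 3 above among them. They were Tnfaip3 at ZT1 and ZT19, Socs3 at ZT13, Il6 at ZT7, ZT13 and ZT19, Cxcl2 at ZT19 and Ccl2 at ZT1 and ZT19 (ratios 0.749 to 1). The part of depth or of other cells in these values was not tested.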

How the results depend on the processing

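The differences from ZT7 to ZT13 of Zfp36 and the 6 called list genes, and the log2 level differences recomputed for the 9 genes, kept their direction under the alternatives run for them. Counts of calls moved. Among the 4 time points edgeR called 81 genes, 1 of the 9 and 6 list genes. For the 24-h curve the counts were 6, 0 and 2. Between ZT7 and ZT13 they were 18 genes and 2 list genes, with 1 call of the 9 over the 6 pairs. With DESeq2 these counts were 599, 2 and 18, then 74, 2 and 10, then 81 and 9, with 9 calls over the pairs. Upper quartile scaling gave 52 genes among time points. With the reads on genes, as log2 odds, for a covariate there were 49 genes among time points, and 3 genes and 1 list gene for the curve. With keratinocyte and fibroblast scores as covariates 257 genes, 0 of the 9 and 3 list genes were called among time points, 2 genes and 0 list genes for the curve, and 0 genes, 0 list genes and 0 calls of the 9 for pairs. Fits of only ZT7 and ZT13 gave 5 genes and 0 list genes, and 0 calls of the 9 over pairs, with Zfp36 at 1.61 (log2). Without the libraries with over 75% of reads on genes, an alternative chosen after seeing the data, 3 list genes were called among time points, 1 gene and 0 list genes for the curve, 11 genes between ZT7 and ZT13, and 0 of the 9 over pairs. The cause of these shifts was not tested.

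Same-numbered libraries were compared over 30 pairs of samples: their deviations correlated at over 0.1 in 12 (-0.54 to 0.34), and 2 of 20 libraries correlated best with their own number, so the numbers do not pair the pools. With a replicate block 31 genes, 0 of the 9 and 2 list genes were called among time points, 0 genes and 0 list genes for the curve, and 0 of the 9 over pairs, while the Zfp36 difference from ZT7 to ZT13 was 1.61. The list genes called were Fosb and Fkbp5. With the block Il6 lay below 0 from ZT7 to ZT13 and from ZT1 to ZT13, and Ccl2 above 0 from ZT1 to ZT13. From ZT13 to ZT19 Tnfaip3 also lay below 0 with the block, as did 7 of the 9 in all.

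Leaving out each library in turn gave 30 to 178 genes, 0 to 2 of the 9 and 1 to 8 list genes among time points, 0 to 10 genes and 0 to 3 list genes for the curve, and 2 to 36 genes, 0 to 3 list genes and 0 to 1 calls of the 9 over pairs. The lowest count among time points was without ZT13 replicate 4 and the highest without ZT19 replicate 4. Differences of mean log2 levels kept their direction, for example 1.03 to 1.52 for Nfkbia (ZT13 minus ZT1), 1.27 to 3.01 for Il6 and 2.82 to 4.59 for Cxcl2 (both ZT13 minus ZT19). That of Cxcl2, 3.55 over all libraries, was 2.22 with a pseudocount of 5. It was 2.62 without both libraries with over 75% of reads on genes. Relative to TMM, the other scalings shifted a time point by -0.13 to 0.12 (log2). Low counts limit Il6, Cxcl2 and Ccl2 most.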
